A study of Homo sapiens with 12 samples.

Results

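The RNAs described here are 10 genes taken by their symbols: NEAT1, MALAT1, KCNQ1OT1, TUG1, NORAD, OIP5-AS1, MEG3, LINC-PINT, PVT1 and MIAT. They are long non-coding RNAs (lncRNAs) commonly listed as retained in the nucleus. All 10 were found among the 61163 genes of both count tables. Their RNA was measured in HEK293T cells, an established human embryonic kidney line. HEK WT are the unmodified cells and HEK UL1 KO are cells in which HNRNPUL1, the gene of the RNA-binding protein hnRNP UL1, was knocked out with CRISPR-Cas9 and guides in its exons. From each line, RNA was taken from a nucleolar (NO) fraction and from a cytoplasmic-nuclear (CN) fraction, with 3 libraries in each of the 4 groups. No drug treatment is named for these 12 libraries, and the sources used here do not give whether HEK UL1 KO is a single clone. The CN fraction holds cytoplasm and nucleoplasm together, so a comparison of NO with CN tells nucleolar RNA from the rest of the cell and cannot show retention in the nucleus. The name of the group was therefore not tested by these data. NORAD and OIP5-AS1 are known as largely cytoplasmic RNAs.

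Nuclear lncRNAs act in several ways. NEAT1 is the scaffold on which paraspeckles are built, MALAT1 gathers at nuclear speckles that are rich in splicing factors, and KCNQ1OT1 silences genes of its own imprinted cluster in cis. NORAD and OIP5-AS1 (also called Cyrano) act away from their genes, NORAD as a decoy for RNA-binding proteins and OIP5-AS1 by directing the decay of the microRNA miR-7. MEG3 is an imprinted RNA expressed from the maternal chromosome, LINC-PINT is induced by p53, PVT1 lies beside the MYC gene, MIAT was described in neurons and in the heart, and TUG1 is a broadly expressed conserved RNA.

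The ends of MALAT1 and NEAT1 are shown first, because both RNAs lack a usual poly(A) tail at the matured end and are instead held by a triple helix of U-rich and A-rich stretches. Both genes lie on chromosome 11, MALAT1 at chr11:65497738-65506516 and the single exon of the long NEAT1 isoform at chr11:65422798-65445540 (RefSeq, GRCh38.p14, plus strand). The sequences below are the last 110 bases of each, read from GENCODE 44 transcripts at chr11:65506007-65506116 and chr11:65445431-65445540. That of MALAT1 ends at the base before the tRNA-like mascRNA. Capitals mark a U-rich run of 16 bases and an A-rich run of 11 bases that the 2 RNAs share, letter for letter.
MALAT1: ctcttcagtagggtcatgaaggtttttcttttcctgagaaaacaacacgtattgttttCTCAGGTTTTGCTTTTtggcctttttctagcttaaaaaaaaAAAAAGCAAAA
NEAT1: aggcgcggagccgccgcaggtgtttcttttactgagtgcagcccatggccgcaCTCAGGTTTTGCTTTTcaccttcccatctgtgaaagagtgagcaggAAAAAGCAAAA

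The A-rich run occurred in the last 110 bases of 32 of 56967 canonical GENCODE transcripts, or 0.0562%. The U-rich run occurred there in 1 of them, NEAT1 itself, and so did both runs together. The annotated MALAT1 transcript runs past the mature end and is not counted for that reason.

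OIP5-AS1 is shown for the site through which it pairs with miR-7. The gene lies at chr15:41282697-41313338 on the plus strand, and the site of 26 bases lies at chr15:41300574-41300599 in 12 of its 72 GENCODE transcripts. Capitals in the site mark 14 and 8 bases that are complementary to miR-7, with 4 unpaired bases between them. In the miRNA, taken from RefSeq, capitals mark the seed, bases 2 to 8. Among 61228 canonical transcripts, 1 held both complementary parts at most 8 bases apart. The level of miR-7 was not analysed here.
OIP5-AS1 site: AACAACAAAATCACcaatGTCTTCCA
hsa-miR-7-5p: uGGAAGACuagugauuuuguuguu

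The libraries held 37141666 to 83019079 counts in NO and 54349399 to 104040073 in CN, and rRNA took 55.3 to 78.7% of them. The 10 lncRNAs together had 9007 to 32856 counts in NO and 25961 to 38193 in CN. MALAT1 alone made up 47.0 to 67.1% of these in NO and 55.5 to 71.1% in CN. HNRNPUL1, the targeted gene, fell 3.99-fold in NO (log2 fold change −1.997, SE 0.323, adjusted p = 0.00649) and 3.55-fold in CN (log2 fold change −1.83, SE 0.0828, adjusted p = 2.12e-07) in HEK UL1 KO. Between 152 and 453 counts of it remained in each knockout library. HEK WT NO replicate 3 stood apart from the other 2 HEK WT NO libraries, with a TMM scaling factor of 1.71 against 0.897 and 0.823. The HEK UL1 KO NO factors were 1.39 to 1.58. Without it, HNRNPUL1 fell by 2.27 on the log2 scale in NO (adjusted p = 6.02e-05). The calls of the 10 lncRNAs and of the gene lists between the genotypes in NO are therefore given with and without it. Of 8 genes typical of HEK293T, all passed the filter in both comparisons of the genotypes. In CN 4 of them were higher in HEK UL1 KO, with KRT8 at a log2 fold change of 2.30, and 3 lower, with INA at −4.60. In NO 2 were lower, or 2 higher and 3 lower without HEK WT NO replicate 3. Of all genes, 15.6% were higher and 22.3% lower in CN, and 0.365% and 0.574% in NO. Without that library the shares in NO were 9.87% and 15.3%. The 6 defining genes of absent cell types (ALB, PTPRC, CD3E, HBB, COL3A1 and MYH7) summed to 110 to 418 counts in NO and 31 to 71 in CN, and 0 of those tested were called between the genotypes.

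Levels are given as CPM, counts in proportion to the library size, after TMM scaling over all 12 libraries. For 4 members with a transcript of 1 exon over the whole gene, they were also divided by the RefSeq gene length and compared on that length. NEAT1 also has a short isoform that counts per gene do not separate. Its value per kb is too low if many counts come from that isoform. Its order against NORAD below therefore holds only for the length of the long isoform. In HEK WT CN the order was MALAT1 with 26.1 to 29.2 CPM per kb, NORAD with 5.83 to 5.95, NEAT1 with 1.52 to 2.09 and KCNQ1OT1 with 0.273 to 0.323. No neighbours in this order overlapped. The same order was found in HEK UL1 KO CN, with 45.8 to 50.5 CPM per kb for MALAT1, 4.94 to 5.50 for NORAD, 2.49 to 3.31 for NEAT1 and 0.233 to 0.248 for KCNQ1OT1. In NO, NORAD was above NEAT1 in each library. NORAD had 1.07 to 2.31 CPM per kb in HEK WT NO and 1.02 to 2.15 in HEK UL1 KO NO. NEAT1 had 0.371 to 1.02 and 0.801 to 1.20. In the knockout the ranges over libraries overlapped.

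KCNQ1OT1 had the lowest level per length of the 4. In NO it had 0.171 to 0.305 CPM per kb in HEK WT and 0.136 to 0.219 in HEK UL1 KO. The summed counts of the 6 genes of absent cell types, divided by the summed length of their canonical transcripts, gave 0.121 to 0.184 and 0.149 to 0.163 CPM per kb in the same groups, so the ranges overlapped. In CN those genes were at 0.0246 to 0.0562 CPM per kb, below KCNQ1OT1 in each library. What part of the KCNQ1OT1 counts in NO comes from the same source as the counts of these genes was not tested.

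**Figure D1:**
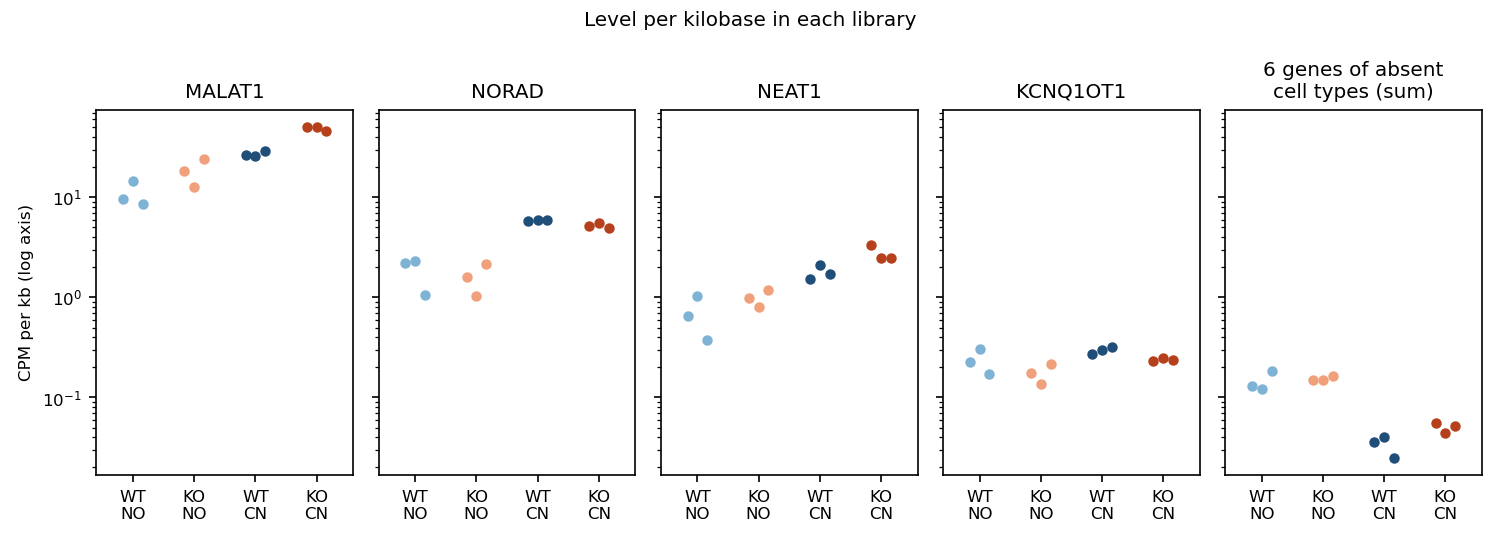
Level per kilobase (CPM per kb, log axis) of MALAT1, NORAD, NEAT1, KCNQ1OT1 and of 6 genes of absent cell types summed, with 1 point per library in the 4 groups (WT, HEK WT; KO, HEK UL1 KO; NO, nucleolar; CN, cytoplasmic-nuclear). MALAT1 lies highest in each group, and in NO the points of KCNQ1OT1 reach down to those of the genes of absent cell types.

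The first question was whether loss of hnRNP UL1 changed these RNAs. In CN, 9 of the 10 passed the filter on low counts, MEG3 being left out, and 5 of the 9 were called. The knockout had more MALAT1, NEAT1 and OIP5-AS1 and less TUG1 and KCNQ1OT1. Of all 27234 genes tested in CN, 15.6% were called higher and 22.3% lower, beside 3 and 2 of the 9 lncRNAs. With 9 genes, 1 call more or less moves such a share widely. The median log2 fold change was 0.16 over the 9 lncRNAs and 0.04 over all genes. In one fit of all 12 libraries, in which the wider spread in NO enters the test, 0 of these lncRNAs were called. Of all 37806 genes in that fit, 1792 were higher and 2425 lower. The adjusted p there was 0.0597 for MALAT1, 0.0618 for TUG1, 0.156 for NEAT1, 0.373 for KCNQ1OT1 and 0.399 for OIP5-AS1.

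MALAT1 had the largest change. Its levels in HEK WT CN were 233, 229 and 257 CPM, and in HEK UL1 KO CN 444, 444 and 402 CPM. The knockout libraries were all higher and the groups did not overlap. The rise was 1.90-fold (log2 fold change 0.93, SE 0.0907, adjusted p = 3.13e-05).

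NEAT1 behaved alike. It had 34.5, 47.5 and 39.3 CPM in HEK WT CN and 75.2, 56.7 and 56.7 CPM in HEK UL1 KO CN. Again each knockout library lay above each wild-type library, although the spread within a group was wider than for MALAT1. The rise was 1.65-fold (log2 fold change 0.72, SE 0.138, adjusted p = 0.0022). Counts per gene do not separate the short NEAT1 isoform from the long one, since both share the same start.

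OIP5-AS1, the third RNA that rose, had 13.1, 13.2 and 11.4 CPM in HEK WT CN and 16, 16.7 and 15.3 CPM in HEK UL1 KO CN. The groups did not overlap. The rise was 1.34-fold (log2 fold change 0.43, SE 0.0871, adjusted p = 0.00312). NORAD, the other RNA known from the cytoplasm, has a single exon at chr20:36045618-36050960 on the minus strand (RefSeq, GRCh38.p14). It had 31.2, 31.8 and 31.8 CPM in HEK WT CN against 27.4, 29.4 and 26.4 CPM in HEK UL1 KO CN. Its knockout libraries were lower without overlap, but the difference did not pass the test (log2 fold change −0.10, SE 0.0689, adjusted p = 0.251).

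TUG1 moved the other way. It had 27.3, 28.6 and 30.1 CPM in HEK WT CN and 17.7, 18.8 and 17.8 CPM in HEK UL1 KO CN. All knockout libraries lay below the wild type, by 1.495-fold (log2 fold change −0.58, SE 0.0673, adjusted p = 9.02e-05). The call was lost under 2 of 14 alternative settings, by total counts (−0.38, adjusted p = 0.0875) and in the fit of all 12 libraries (−0.66, adjusted p = 0.0618). RefSeq lists TUG1, at chr22:30969265-30979395, as a protein-coding gene because of a reading frame in it.

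KCNQ1OT1 had 25.0, 27.6 and 29.6 CPM in HEK WT CN and 21.4, 22.7 and 21.9 CPM in HEK UL1 KO CN. Its fall of 1.17-fold (log2 fold change −0.23, SE 0.0742, adjusted p = 0.0312) was the smallest among the 5 calls. The call was lost under 10 of 14 alternative settings, among them the fits without any one of HEK WT CN replicates 2 and 3 or any one of the 3 HEK UL1 KO CN libraries, whose log2 fold changes were −0.15 to −0.24. The gene lies at chr11:2608328-2699994 on the minus strand, inside and antisense to KCNQ1, which rose in CN (log2 fold change 0.56, SE 0.152, adjusted p = 0.0143). The strand setting of the counting was not given in the sources used here, so reads of the pair may not be told apart.

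The remaining members were not called in CN. PVT1, a neighbour of MYC, had 20.1, 23.7 and 26.1 CPM in HEK WT CN and 27.7, 25.4 and 24.4 CPM in HEK UL1 KO CN, and the groups overlapped (log2 fold change 0.23, SE 0.0922, adjusted p = 0.0677). PVT1 was called higher under 3 of 14 alternative settings, by total counts (0.45, adjusted p = 0.0477), with at least 10 counts in every library (0.31, adjusted p = 0.0176) and without HEK WT CN replicate 3 (0.35, adjusted p = 0.00866). LINC-PINT had 9.78, 10.6 and 10.6 CPM against 9.62, 9.65 and 8.37 CPM, with each knockout library below the wild type (log2 fold change −0.08, SE 0.0817, adjusted p = 0.458). MIAT was measured on 12 to 32 counts per library in CN, and its groups overlapped (log2 fold change 0.16, SE 0.371, adjusted p = 0.751). MEG3 had 2, 7 and 2 counts in HEK WT CN and 6, 9 and 12 in HEK UL1 KO CN, too few to be tested. In RefSeq (GRCh38.p14) PVT1 lies at chr8:127794524-128101256, LINC-PINT at chr7:130877562-131109925, MIAT at chr22:26646429-26676478 and MEG3 at chr14:100826108-100861026, all with several exons.

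**Figure D2:**
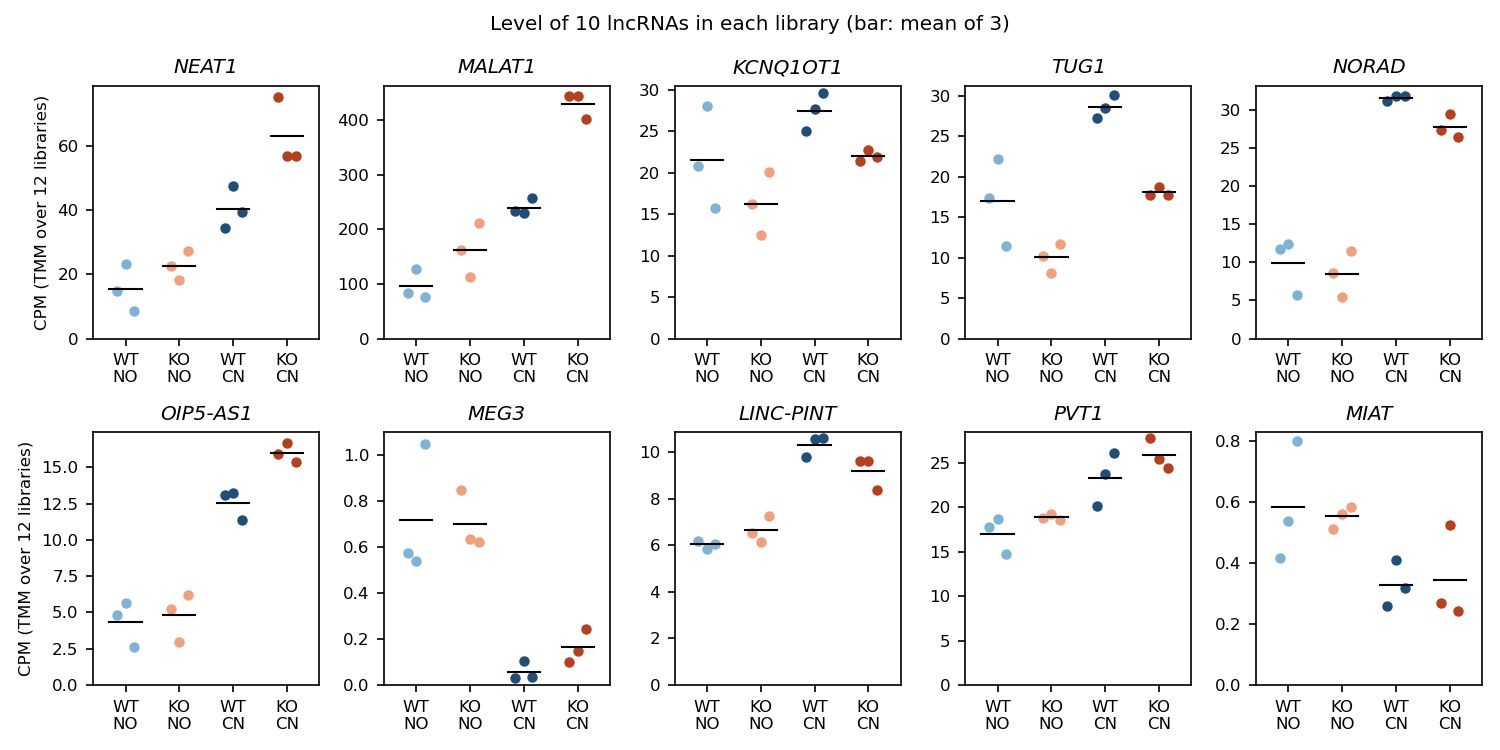
Level of each of the 10 lncRNAs (CPM after TMM scaling, axis from 0) in each library, with the mean of 3 as a bar, for HEK WT (WT) and HEK UL1 KO (KO) in the NO and CN fractions. MALAT1 and NEAT1 are higher and TUG1 lower in knockout CN libraries without overlap, whereas in NO the points of most panels mix.

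In NO the same comparison called 0 of the 10 lncRNAs with edgeR. DESeq2 also called 0, beside 1082 of 58746 genes. In edgeR 1 of the 10 had an unadjusted p under 0.05, as had 5574 of all 34836 genes. The share of all 34836 genes called by edgeR in NO at the adjusted threshold was small as well, 0.365% higher and 0.574% lower. The median log2 fold change of the 10 was −0.02, against 0.00 over all genes.

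The values in NO were more scattered than in CN. MALAT1 had 83.5, 128 and 75.6 CPM in HEK WT NO and 162, 112 and 212 CPM in HEK UL1 KO NO, so that 1 knockout library lay within the wild-type range (log2 fold change 0.68, SE 0.403, adjusted p = 0.413). NEAT1 had 14.7, 23.3 and 8.45 CPM against 22.4, 18.2 and 27.2 CPM (log2 fold change 0.46, SE 0.362, adjusted p = 0.531). The standard errors of both were wider than in CN. Without HEK WT NO replicate 3 the log2 fold changes were 0.49 for MALAT1 (adjusted p = 0.298) and 0.13 for NEAT1 (adjusted p = 0.734).

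TUG1 came nearest to a call in NO. It had 17.4, 22.3 and 11.5 CPM in HEK WT NO and 10.2, 8.12 and 11.7 CPM in HEK UL1 KO NO, and HEK WT NO replicate 3 was the library within the knockout range (log2 fold change −0.84, SE 0.319, adjusted p = 0.208). Without this library the log2 fold change was −1.10 with an adjusted p = 0.0077, and TUG1 was then the 1 lncRNA of the 10 that was called. In that fit 9.87% of all genes were called higher and 15.3% lower. Adjusted p-values for TUG1 in NO ranged from 0.0077 to 0.74 over 14 alternatives.

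For KCNQ1OT1 the levels in NO were 20.7, 28 and 15.7 CPM in HEK WT and 16.2, 12.5 and 20.04 CPM in HEK UL1 KO (log2 fold change −0.48, SE 0.323, adjusted p = 0.468). NORAD had 11.7, 12.3 and 5.70 CPM against 8.60, 5.46 and 11.5 CPM (log2 fold change −0.30, SE 0.347, adjusted p = 0.669). Both overlapped between the genotypes. Without HEK WT NO replicate 3 their log2 fold changes were −0.70 (adjusted p = 0.0637) and −0.62 (adjusted p = 0.0993). The other 5 members, OIP5-AS1, MEG3, LINC-PINT, PVT1 and MIAT, had log2 fold changes of −0.16 to 0.08 in NO and adjusted p-values of 0.83 to 0.943. Without HEK WT NO replicate 3, OIP5-AS1 and PVT1 turned negative (−0.24 and −0.06) and MEG3 and MIAT positive (0.25 and 0.09), LINC-PINT was at 0.03, and 0 of these 5 were called.

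**Figure D3:**
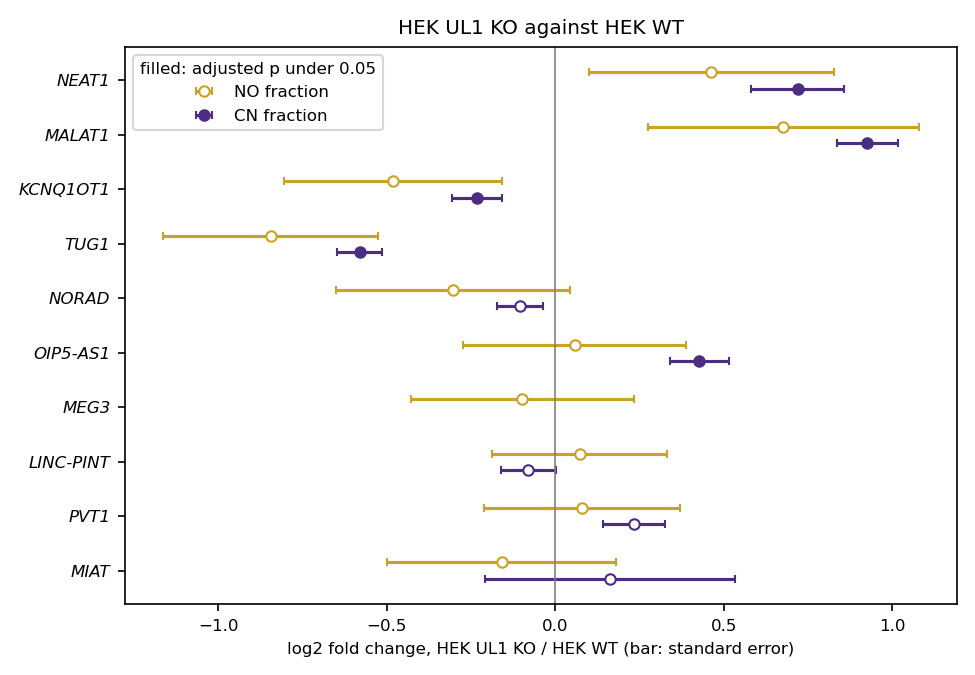
Log2 fold change of HEK UL1 KO over HEK WT for each lncRNA in the NO and CN fractions, with its standard error as a bar; filled points have an adjusted p under 0.05. In CN, MALAT1, NEAT1 and OIP5-AS1 are filled to the right and TUG1 and KCNQ1OT1 to the left, and no point in NO is filled; MEG3 was not tested in CN.

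Ratios of raw counts within a library do not depend on any scaling, and they were looked at after the results above were known, as a description without a test. MALAT1 counts per TUG1 count were 8.54, 8.02 and 8.52 in HEK WT CN and 25.1, 23.6 and 22.6 in HEK UL1 KO CN. In NO they were 4.80, 5.75 and 6.59 in HEK WT and 15.8, 13.8 and 18 in HEK UL1 KO. In both fractions each knockout library was above each wild-type library.

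The ratio of NEAT1 to TUG1 went the same way, from 1.26 to 1.66 in HEK WT CN to 3.02 to 4.25 in HEK UL1 KO CN, and from 0.737 to 1.05 in HEK WT NO to 2.19 to 2.32 in HEK UL1 KO NO. So did KCNQ1OT1, NORAD, OIP5-AS1, LINC-PINT and PVT1 over TUG1 in both fractions, without overlap. KCNQ1OT1, for example, had 0.916 to 0.982 against 1.21 to 1.23 in CN. For NORAD in NO the margin was narrow, with 0.673 in HEK UL1 KO NO replicate 2 against 0.671 in HEK WT NO replicate 1. MEG3 and MIAT over TUG1 overlapped in NO, and MIAT over TUG1 overlapped in CN as well. A rise over TUG1 is thus not particular to MALAT1 and NEAT1. With NORAD, which was called in neither fraction, as the denominator, the MALAT1 ratio was 7.21 to 8.08 against 15.1 to 16.2 in CN and 7.15 to 13.2 against 18.4 to 20.6 in NO, again without overlap. MALAT1 and NEAT1 kept closer to each other. Their ratio was 4.83 to 6.77 in HEK WT CN, 5.90 to 7.82 in HEK UL1 KO CN, 5.51 to 8.95 in HEK WT NO and 6.17 to 7.78 in HEK UL1 KO NO, and these ranges overlapped between the genotypes. A ratio shows unequal change and does not tell which of the RNAs moved.

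**Figure D4:**
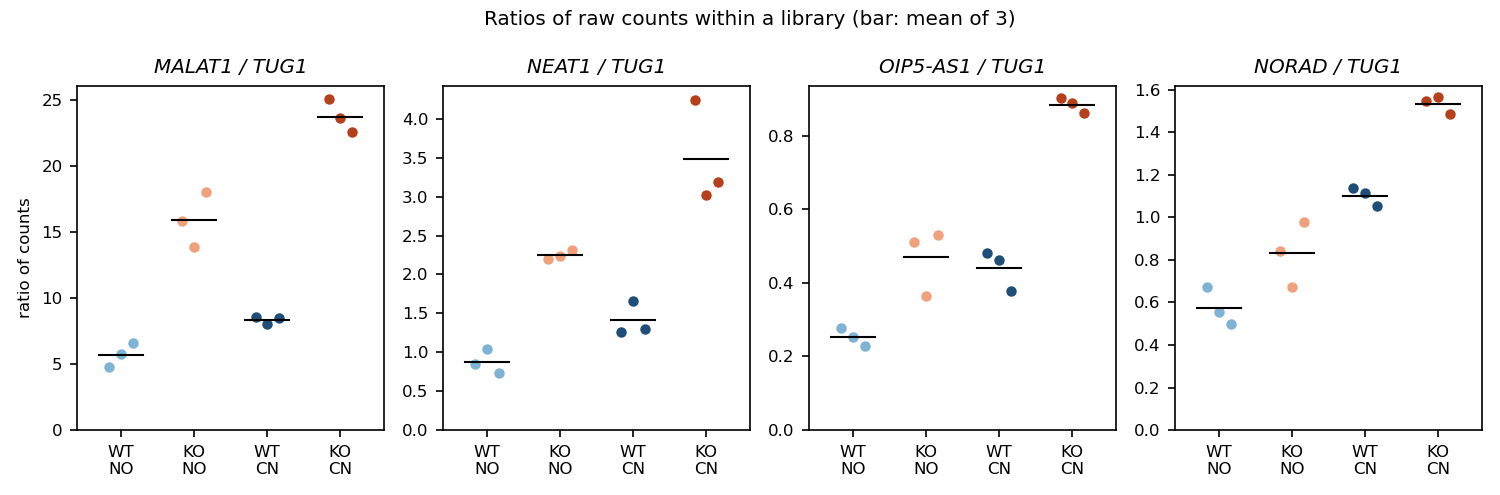
Ratios of raw counts of MALAT1, NEAT1, OIP5-AS1 and NORAD to TUG1 in each library (axis from 0, mean of 3 as a bar) for HEK WT (WT) and HEK UL1 KO (KO) in NO and CN. The knockout points of MALAT1, NEAT1, OIP5-AS1 and NORAD all lie above the wild-type points in both fractions, for example 13.8 to 18 against 4.80 to 6.59 for MALAT1 in NO.

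The second question was how the RNAs divide between the nucleolar fraction and the rest of the cell. In HEK WT, 2 of the 10 were called higher in NO than in CN and 6 lower, where 31.9% of all 29340 genes were higher and 20.9% lower. The knockout had 1 lncRNA higher and 8 lower in NO, beside 40.7% of 34468 genes higher and 35.6% lower. MEG3, counted as higher in both genotypes, passed the filter through its NO libraries alone. The other higher lncRNA in HEK WT was MIAT, whose call was lost under 10 of 14 alternative settings. The medians of the 10 were −0.51 and −0.69 on the log2 scale, against 0.02 and 0.03 over all genes. These shares are relative amounts in libraries that are mostly rRNA, and scaling by total counts moved the median of all genes to 0.37 in HEK WT and to 0.79 in HEK UL1 KO. By that scaling all genes split into 6387 higher and 606 lower in HEK WT, in place of 9355 and 6139, and into 18471 and 825 in HEK UL1 KO, in place of 14023 and 12264. Of the 10 lncRNAs, total counts called 4 in HEK WT and 6 in HEK UL1 KO, the latter 2 higher and 4 lower.

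NORAD and OIP5-AS1, which are known from the cytoplasm, had the largest deficits in NO. NORAD was 2.71-fold lower in NO than in CN in HEK WT (log2 fold change −1.44, SE 0.226, adjusted p = 0.00387) and 3.34-fold lower in HEK UL1 KO (−1.74, SE 0.218, adjusted p = 7.69e-05). OIP5-AS1 was 2.45-fold lower in HEK WT (−1.29, SE 0.219, adjusted p = 0.00396) and 3.41-fold lower in HEK UL1 KO (−1.77, SE 0.213, adjusted p = 6.18e-05). Its NO levels were 4.84, 5.63 and 2.63 CPM in HEK WT and 5.24, 2.97 and 6.24 CPM in HEK UL1 KO, all below the CN levels.

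NEAT1 and MALAT1, the RNAs of nuclear bodies outside the nucleolus, came next. The order of these RNAs was not tested. On leaving out a library in HEK WT, NEAT1 reached −1.67 and OIP5-AS1 −1.62. NEAT1 was 2.23-fold lower in NO in HEK WT (log2 fold change −1.16, SE 0.278, adjusted p = 0.00787) and 2.84-fold lower in HEK UL1 KO (−1.50, SE 0.192, adjusted p = 8.37e-05). MALAT1 was 2.11-fold lower in HEK WT (−1.08, SE 0.221, adjusted p = 0.00504) and 2.72-fold lower in HEK UL1 KO (−1.44, SE 0.244, adjusted p = 0.000386). The NO and CN levels of these 4 RNAs did not overlap in either genotype. The direction of the 4 held under all alternatives, total counts included, although by total counts the MALAT1 call in HEK WT was lost (−0.75, adjusted p = 0.0513).

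TUG1 and LINC-PINT were lower in NO by less. TUG1 was 1.42-fold lower in HEK WT (log2 fold change −0.51, SE 0.19, adjusted p = 0.0451) and 1.84-fold in HEK UL1 KO (−0.88, SE 0.155, adjusted p = 0.000479). LINC-PINT was 1.41-fold lower in both, with log2 fold changes of −0.50 (SE 0.152, adjusted p = 0.0204) and −0.50 (SE 0.143, adjusted p = 0.00769). Its levels were 6.20, 5.86 and 6.08 CPM in HEK WT NO and 6.52, 6.15 and 7.27 CPM in HEK UL1 KO NO, below all CN values. The TUG1 call in HEK WT was lost under 8 of 14 alternative settings. These were the fits without HEK WT NO replicate 1 or any one of the HEK WT CN libraries (adjusted p = 0.0823 to 0.103), TMM without rRNA genes (−0.43, adjusted p = 0.0985), at least 10 counts in every library (−0.29, adjusted p = 0.121), the replicate block (−0.53, adjusted p = 0.0818) and total counts (−0.22, adjusted p = 0.467). The LINC-PINT call there was lost under 5 of 14, without HEK WT CN replicate 2 (adjusted p = 0.0634) or 3 (adjusted p = 0.0506), with at least 10 counts in every library (−0.25, adjusted p = 0.23), with the replicate block (−0.51, adjusted p = 0.0658) and by total counts (−0.11, adjusted p = 0.833). Each of these fits, without HEK WT CN replicate 2 or 3, left 5 of the 10 called, beside 13968 of 30662 and 12500 of 30775 genes. Without HEK WT NO replicate 3, 7 of the 10 were called, with 24.8% of all genes higher and 20.8% lower. In HEK UL1 KO the LINC-PINT call was lost with at least 10 counts in every library (−0.07, adjusted p = 0.672), and by total counts its value turned to 0.25, below the shift of all genes. The TUG1 call in HEK UL1 KO was lost by total counts (−0.13, adjusted p = 0.608).

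KCNQ1OT1 and PVT1 differed less between the fractions. In HEK WT neither was called, with log2 fold changes of −0.11 (SE 0.181, adjusted p = 0.636) and −0.20 (SE 0.154, adjusted p = 0.311). PVT1 was called lower in HEK WT NO under 1 of 14 alternative settings, the fit of all 12 libraries (−0.45, adjusted p = 0.0381). In HEK UL1 KO both were lower in NO, KCNQ1OT1 by 1.38-fold (−0.47, SE 0.17, adjusted p = 0.0252) and PVT1 by 1.39-fold (−0.48, SE 0.149, adjusted p = 0.0123). PVT1 had 17.7, 18.6 and 14.7 CPM in HEK WT NO and 18.8, 19.2 and 18.5 CPM in HEK UL1 KO NO. The KCNQ1OT1 call was lost under 8 of 14 alternative settings, among them the fits without HEK UL1 KO NO replicate 1 (−0.44, adjusted p = 0.0798), HEK UL1 KO NO replicate 2 (−0.26, adjusted p = 0.0758) or HEK UL1 KO CN replicate 2 (−0.51, adjusted p = 0.0598). With at least 10 counts in every library it was at −0.04 (adjusted p = 0.837). The PVT1 call was lost under 3, with at least 10 counts in every library (−0.05, adjusted p = 0.789), with the replicate block (−0.48, adjusted p = 0.0611) and by total counts. By total counts both turned positive in HEK UL1 KO, to 0.28 and 0.27, again below the shift of all genes.

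MEG3 and MIAT were the members with more RNA in NO. MEG3 had 29, 23 and 76 counts in HEK WT NO and 111, 35 and 32 in HEK UL1 KO NO, against 2 to 12 in each CN library. The excess in NO was 15.1-fold in HEK WT (log2 fold change 3.91, SE 0.593, adjusted p = 0.00381) and 4.35-fold in HEK UL1 KO (2.12, SE 0.316, adjusted p = 0.000185). MEG3 passed the filter through its NO libraries alone. With no filter on counts the log2 fold changes were 3.62 (adjusted p = 2.37e-07) and 1.96 (adjusted p = 5.59e-06). With so few counts in CN the size depends on single libraries, and on leaving out each in turn it was 3.42 to 4.64 in HEK WT and 1.78 to 2.36 in HEK UL1 KO.

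MIAT had 21, 23 and 58 counts in HEK WT NO and 67, 31 and 30 in HEK UL1 KO NO. It was 2.18-fold higher in NO in HEK WT (log2 fold change 1.13, SE 0.414, adjusted p = 0.0427) and was not called in HEK UL1 KO (0.61, SE 0.308, adjusted p = 0.089). In HEK UL1 KO it was also not called under 10 of 14 alternative settings. Under the others it was called higher in NO, total counts among them (1.38, adjusted p = 0.00108). The HEK WT call was lost under 10 of 14 alternative settings. It was lost with DESeq2 (0.84, adjusted p = 0.152), DESeq2 size factors (1.11, adjusted p = 0.0504), no filter (0.84, adjusted p = 0.114), the replicate block (1.07, adjusted p = 0.115) and total counts (1.58, adjusted p = 0.0922), and without any one of HEK WT NO replicates 2 and 3 and HEK WT CN replicates 1, 2 and 3, with log2 fold changes of 0.71 to 1.24. HEK WT NO replicate 3 had the highest MEG3 and MIAT levels of its group, 1.05 and 0.799 CPM. The 6 genes of absent cell types, summed over all 6 whether or not they passed the filter, were also higher in NO, with 0.121 to 0.184 CPM per kb against 0.0246 to 0.0562 in CN. Their summed counts in NO were highest in HEK WT with HEK WT NO replicate 3, at 282 against 140 and 110. The lens crystallin genes CRYBB1 and CRYBA4, which lie near MIAT, were also higher in NO in HEK WT (2.41, SE 0.536, adjusted p = 0.00619, and 1.98, SE 0.503, adjusted p = 0.00984). In HEK WT CN they had 3 to 9 and 7 to 15 counts per library, and neither would have passed the filter on its CN libraries. The part of such counts in the MEG3 and MIAT values was not tested.

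**Figure D5:**
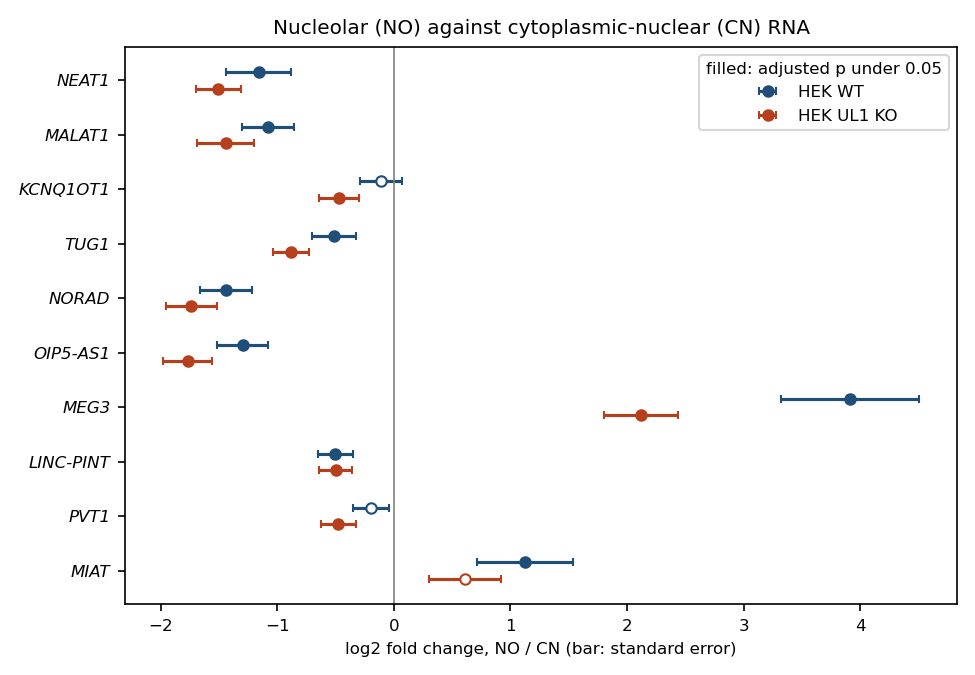
Log2 fold change of NO over CN for each lncRNA in HEK WT and HEK UL1 KO, with its standard error as a bar; filled points have an adjusted p under 0.05. NORAD, OIP5-AS1, NEAT1 and MALAT1 lie between −1.08 and −1.77, and MEG3 lies far to the right at 3.91 and 2.12.

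The difference between the fractions in the effect of the knockout was tested as an interaction over all 12 libraries. It called 0 of the 10 lncRNAs with edgeR, where 0.114% of 37806 genes were called, and DESeq2 called 0 as well. MEG3 alone of the 10 had an unadjusted p under 0.05 (log2 difference −1.50, SE 0.668, adjusted p = 1), as had 1254 of all 37806 genes. For MALAT1 the effect in NO minus that in CN was −0.08 (SE 0.395) on the log2 scale, for NEAT1 −0.09 (SE 0.407) and for TUG1 −0.10 (SE 0.315). The errors leave room for sizeable differences in either direction, so the changes in CN are not shown to be particular to that fraction.

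The mRNAs of proteins of the same nuclear bodies were then counted in the CN comparison of the genotypes. Any list there is to be read beside the 22.3% of all genes called lower. Of 12 mRNAs of paraspeckle proteins, 5 were lower in HEK UL1 KO and 0 higher. The largest changes were in HNRNPK (log2 fold change −0.69, SE 0.0784, adjusted p = 8.05e-05) and SFPQ (−0.47, SE 0.0705, adjusted p = 0.000508), a protein that NEAT1 needs to form paraspeckles. NEAT1 itself rose in the same libraries. Of 10 mRNAs of nuclear speckle proteins, 5 were lower and 0 higher, led by the splicing factors SRSF2 (−0.67, SE 0.0827, adjusted p = 0.00013) and SF3B1 (−0.47, SE 0.0753, adjusted p = 0.000769).

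Among 12 mRNAs of proteins known to bind or modify these RNAs, 10 were lower and 0 higher. KHDRBS1 fell by 0.73 (SE 0.0716, adjusted p = 3.19e-05) and RBMX fell by 0.65 (SE 0.0746, adjusted p = 8.21e-05). The medians of the paraspeckle, speckle and partner lists were −0.19, −0.23 and −0.37, against 0.04 over all genes. In NO 0 of the 12, 10 and 12 genes of these lists were called between the genotypes, with medians of −0.41, −0.44 and −0.55. Without HEK WT NO replicate 3, 6, 4 and 8 of them were lower and 0 higher in NO, beside 15.3% of all genes lower, with medians of −0.68, −0.71 and −0.80.

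Of 22 genes beside or antisense to the members, 17 were tested in CN, 3 being higher and 4 lower, near the 15.6% and 22.3% of all genes. MORC2, the neighbour of TUG1, and PES1, farther off on the same chromosome, were lower (log2 fold changes −0.59, SE 0.107, adjusted p = 0.0016, and −0.53, SE 0.129, adjusted p = 0.00836). Beside members that were not called, on the chromosome of NORAD CPNE1 was lower (−0.34, adjusted p = 0.00339) and EPB41L1 higher (0.46, adjusted p = 0.00787), and MKLN1, near LINC-PINT, was lower (−0.43, adjusted p = 0.00179). TALAM1, the antisense transcript of MALAT1, was higher (1.56, SE 0.393, adjusted p = 0.0102), on 5 to 21 counts per CN library against 15135 to 27088 of MALAT1. It had 5 to 11 counts in HEK WT CN and 16 to 21 in HEK UL1 KO CN. It thus passed the filter through the knockout libraries alone, the group where it is higher, and its call among the 3 carries little weight. With the strand setting unknown, the TALAM1 counts may be reads of MALAT1, and the same holds for OIP5 and OIP5-AS1. MYC was not called (0.16, SE 0.134, adjusted p = 0.364), nor was PVT1. OIP5, on the opposite strand to OIP5-AS1, was not called either (0.37, SE 0.149, adjusted p = 0.0739). In NO 0 of 18 were called, and without HEK WT NO replicate 3, 1 of 19 was higher and 4 were lower. In the fit without it, 9.87% of all genes were higher and 15.3% lower.

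Other lncRNAs moved in both directions. Of 19 tested in CN, 2 were higher and 9 lower, with a median of −0.20. Of all genes in CN, 15.6% were higher and 22.3% lower, with a median of 0.04. CYTOR, a cytoplasmic lncRNA, rose most (log2 fold change 1.87, SE 0.113, adjusted p = 1.67e-06), and CASC15 also rose (0.72, SE 0.186, adjusted p = 0.0113). EBLN3P (−0.81, SE 0.0965, adjusted p = 0.000109), GAS5, a host of snoRNAs (−0.74, SE 0.0676, adjusted p = 1.97e-05), and DLEU2 (−0.74, SE 0.0827, adjusted p = 7.39e-05) fell. DANCR was the 1 of 20 called in NO, and it was lower in NO (−1.52, SE 0.296, adjusted p = 0.0232) and in CN (−0.59, SE 0.135, adjusted p = 0.00587). Among 12 abundant cytoplasmic mRNAs, 3 were higher and 4 lower in CN and 0 were called in NO. Of all genes in NO, 0.365% were higher and 0.574% lower. Without HEK WT NO replicate 3, 1 of the 20 other lncRNAs was higher and 9 were lower in NO, and 2 of the 12 cytoplasmic mRNAs were lower and 0 higher. In that fit 9.87% of all genes were higher and 15.3% lower.

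Between the fractions the lists were counted in the same way. The 3 nucleolar RNAs SNORD3A, SNORD118 and SNORD13 were higher in NO in both genotypes, with medians of 4.67 in HEK WT and 4.04 in HEK UL1 KO. Between the genotypes 0 of these 3 were called in NO, and 1 was lower there without HEK WT NO replicate 3, beside 15.3% of all genes. In CN 1 of the 3 was lower in HEK UL1 KO, beside 22.3% of all genes. Of 12 cytoplasmic mRNAs, 5 in HEK WT and 11 in HEK UL1 KO were lower in NO and 0 higher, with medians of −0.58 and −0.88. NORAD, OIP5-AS1, NEAT1 and MALAT1 lay below both of these medians. Of the paraspeckle, speckle and partner mRNAs, 6, 5 and 9 were lower in NO in HEK WT, 12, 10 and 12 in HEK UL1 KO, and 0 higher. Of 19 other lncRNAs tested in HEK WT, 4 were higher in NO and 7 lower. In HEK UL1 KO 3 of 20 were higher and 14 lower. Among them GAS5 was higher in NO in HEK WT (log2 fold change 2.40, SE 0.255, adjusted p = 0.000683), and FTX, which takes part in X inactivation, was lower (−1.02, SE 0.189, adjusted p = 0.00424). Of the genes beside or antisense to the members, 6 of 17 tested were higher in NO and 2 lower in HEK WT (5 and 2 without HEK WT NO replicate 3), while HEK UL1 KO had 7 of 19 higher and 9 lower. The higher genes include CRYBB1 in both genotypes, on 3 to 9 counts per CN library. In HEK UL1 KO they also include DLK1, on 1 to 4 counts per CN library. Both passed the filter through their NO libraries alone. The same holds for SLC22A18, RTL1 and CRYBA4 in both genotypes and for MEG8 in HEK WT. SLC22A18, for example, had 6 to 11 counts per library in HEK WT CN. The numbers of higher genes in this list therefore carry little weight. Of all genes 31.9% were higher and 20.9% lower in HEK WT, and 40.7% and 35.6% in HEK UL1 KO. Among those near MEG3, MEG8 was higher in NO in HEK WT (2.28, SE 0.505, adjusted p = 0.0061) and in HEK UL1 KO (2.11, SE 0.212, adjusted p = 3e-05), and so was RTL1 (2.28, SE 0.692, adjusted p = 0.0202, and 1.89, SE 0.398, adjusted p = 0.00133). RTL1 was measured on 3 to 14 counts per CN library and MEG8 on 7 to 23. RTL1 in both genotypes and MEG8 in HEK WT were tested only because their NO libraries passed the filter, so these p-values carry little weight.

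Genes whose levels followed those of MALAT1 and NEAT1 across the 12 libraries were looked for among 3805 genes with a mean of at least 10 CPM. For MALAT1 the 3 nearest by Pearson's r of log2 CPM were TTC19 (0.990), CSNK1G1 (0.988) and TUSC3 (0.985). For NEAT1 they were TTC19 (0.985), BCL2L11 (0.981) and SH3D19 (0.977). The r between MALAT1 and NEAT1 themselves was 0.962. These values describe 12 libraries of 4 groups that share fraction and scaling, and they are not tested. In RNA from many cells, a change in each cell and a change in a share of the cells cannot be told apart.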

How the data were processed

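RNA-seq counts of the 2 genotypes were used in both fractions, with 3 libraries per group. The authors deposited raw counts per gene, not normalized, as 1 table per fraction; per the study's methods, total RNA without rRNA depletion was read in single reads, trimmed with Cutadapt 3.7, aligned to GRCh38 with STAR 2.7.8 and counted with featureCounts. The counting options, strand setting and annotation release are not given in the sources used here. All columns were matched to a sample by their labels. The design text calls the libraries biological triplicates; separate cultures are not described, so p-values measure the spread between these libraries, which may be technical.

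Counts were analysed with edgeR 4.0.16 (R 4.3.3), using the quasi-likelihood F test after filterByExpr (minimum count 10, minimum total 15) and TMM, with Benjamini-Hochberg adjustment over all genes and a threshold of 0.05. Genotypes were compared within each fraction and fractions within each genotype (6 libraries each), and the interaction was fitted over 12 libraries. The standard error is the log2 fold change divided by the square root of F. CPM use TMM factors of all 12 libraries. Alternatives were DESeq2 1.42.0, total counts, TMM without rRNA genes, DESeq2 size factors, other filters, a replicate block, all libraries in one fit, unadjusted p, and leaving out each library. The procedure was tested on simulated data, and no result given here rests on that test. The text names all 10 members, HNRNPUL1, genes of the lists that were called in both fractions or were among the 4 with the largest change, and the 3 genes most alike NEAT1 and MALAT1 (log2 of CPM with 1 count added). MYC, OIP5 and CASC15 were named after their values were seen. A gene of the lists that the rule would name is not reported here. The members and lists were chosen with earlier results of these data known. Positions are from RefSeq (GRCh38.p14) and transcript sequences from GENCODE 44. Python 3.11.15 and matplotlib 3.10.9 drew the figures.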

Additional observations from a re-analysis of the deposited data

How the results depend on the processing

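In CN, DESeq2, TMM without rRNA genes, DESeq2 size factors, both other filters and total counts gave 4 or 5 of the 10 lncRNAs called between the genotypes, and leaving out a library gave 4 to 5, but one fit of all 12 libraries called 0. The members called were not the same: KCNQ1OT1 was lost under 10 of 14 settings and TUG1 under 2, and PVT1 was gained under 3. In NO the count was 0 to 1 on leaving out a library and 1 at unadjusted p. For NO against CN in HEK WT, 8 became 4 by total counts, 5 with at least 10 counts in every library and 5 to 7 on leaving out a library; in HEK UL1 KO, 9 became 6 by total counts, 6 with at least 10 counts in every library, 7 with the replicate block and 8 to 9 on leaving out a library. MIAT was not called there under 10 of 14 settings and was gained under the others, total counts among them (1.38, adjusted p = 0.00108). The interaction count was 1 at unadjusted p and 0 on leaving out any library. Same-numbered libraries did not deviate together (r of −0.04 to −0.46 in the 4 comparisons), so replicate numbers were not taken as pairs; with the replicate block, 5 of the 10 were called in NO against CN in HEK WT, and the PVT1 interaction was a log2 difference of 2e-04 (adjusted p = 1).

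Total counts moved the median of all genes between the genotypes to 0.40 in NO and to 0.24 in CN, from 0.00 and 0.04, and all genes split into 7 higher and 3 lower and 3697 and 1724, in place of 127 and 200 and 4253 and 6070. They turned KCNQ1OT1 (0.055), NORAD (0.29), MEG3 (0.19) and MIAT (0.16) positive between the genotypes in NO and NORAD (0.094) and LINC-PINT (0.12) in CN. For NO against CN they turned KCNQ1OT1 (0.21) and PVT1 (0.16) in HEK WT and KCNQ1OT1 (0.28), LINC-PINT (0.25) and PVT1 (0.27) in HEK UL1 KO, all under the shift of all genes. The interaction values so turned were NEAT1 (0.17), MALAT1 (0.062), KCNQ1OT1 (0.079), TUG1 (0.092), NORAD (0.20), OIP5-AS1 (0.038) and PVT1 (0.11). With at least 10 counts in every library, KCNQ1OT1 (0.12) and PVT1 (0.046) turned in NO against CN in HEK WT, and NEAT1 (5e-04), NORAD (0.034) and PVT1 (0.042) in the interaction.

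On leaving out a library, signs changed for OIP5-AS1 (−0.24 to 0.34), MEG3 (−0.23 to 0.25), PVT1 (−0.060 to 0.20) and MIAT (−0.31 to 0.094) between the genotypes in NO, for MIAT (−0.26 to 0.37) in CN, and for KCNQ1OT1 (−0.44 to 0.021) in NO against CN in HEK WT. In the interaction they changed for NEAT1 (−0.40 to 0.33), MALAT1 (−0.34 to 0.19), KCNQ1OT1 (−0.28 to 0.16), TUG1 (−0.33 to 0.14), NORAD (−0.32 to 0.21), OIP5-AS1 (−0.47 to 0.055), PVT1 (−0.11 to 0.088) and MIAT (−0.45 to 0.25). The cause was not tested. Counts of MEG3 and MIAT limit what can be seen of them in CN.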
